A study of Danio rerio with 49 samples.

Results

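The injury response described here is a module of 129 zebrafish genes whose transcripts were raised in the spinal cord 1 week after a complete transection, on both sides of the lesion, and were back near the uninjured level at 6 weeks on both sides. Its members were chosen by measured values. Of 40085 annotated rows, 31901 carried an Ensembl gene identifier and 13892 of these averaged at least 1 FPKM (fragments per kilobase of transcript, scaled to library size) over the 49 libraries. A change is the mean log2(FPKM + 0.1) of a region and week minus that of the same region in uninjured fish. A change of at least 1 at 1 week in both regions was met by 1009 genes. Of these, 129 stood between -0.5 and 0.5 at 6 weeks in both regions and make up the module, and 391 were still at 1 or more in both and serve here for comparison. The values at 1 and 6 weeks were therefore fixed by the choice and are given as description only, with no test. The values at 2 and 4 weeks played no part in it beyond the mean FPKM.

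The fish were AB wild type zebrafish, juvenile to adult, of both sexes. The cord was cut through at the seventh segment from the junction of brainstem and spinal cord, and 5 segments rostral and 5 segments caudal to the cut were sequenced as separate libraries 1, 2, 4 and 6 weeks after the cut (weeks post injury, wpi). Uninjured fish gave the same 2 regions as a single set of controls, with no week given. Changes over the weeks after the cut may therefore include growth or age of the fish, which cannot be told apart here. Each of the 10 groups had 5 libraries except caudal 6 wpi, with 4, since replicate 4 of that group was not analysed here. The study describes pooled samples, and the number of fish it gives can be read as per library or as per group. On the second reading there were fewer fish than libraries, so libraries of a group may share fish. The p-values measure the spread between libraries, which may be technical.

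Zebrafish, unlike mammals, rebuild a functional cord after transection. Macrophages and other blood cells enter the wound, ependymal and radial glial cells lining the central canal divide, cells bridge the gap and neurons regrow axons across it. Genes that serve such steps include the licensing factors and helicase subunits that start DNA synthesis, the cohesin and centromere proteins used in cell division, growth cone and microtubule proteins of extending axons, the actin machinery of moving cells, and chemokines that draw blood cells in.

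The 129 genes lay on 24 chromosomes of the danRer11 assembly, with at most 10 on any of them. Mean levels ran over 49 libraries between 1.01 FPKM for si:dkeyp-20g2.1 and 690 FPKM for gap43, with a median of 6.53 FPKM, and 11 genes (8.53%) averaged 100 FPKM or more, against 3.55% of all genes at 1 FPKM or more. A symbol was known for 123 of them. Symbols in capitals follow the mammalian style, and the roles given for these genes are those of their mammalian counterparts. The module had soft edges. RAB13, a small GTPase of vesicle traffic, was the member closest to the week 1 limit with a rostral change of 1.0006, and plaua, which encodes a urokinase-type plasminogen activator, missed it with a caudal change of 0.9999. The Arp2/3 subunit gene actr3 was closest to the week 6 limit with a rostral change of 0.4997, and the ferritin-like gene fthl29 missed it with 0.507. The genes raised most among those that missed a single limit were tppp, a microtubule-bundling protein (caudal 4.87, rostral 5.88 at 1 wpi), fosl1b, an AP-1 transcription factor (4.29, 4.86), and sst2, a somatostatin (3.87, 4.49). All 3 were left out because their rostral change at 6 wpi was still 1.76, 1.79 and 1.29.

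Fragments assigned to genes numbered 4359571 to 26940599 per library (median 19801039), and mitochondrial transcripts took 9.25% to 33.4% of them. Summed FPKM of the macrophage and microglia marker list was 10241 to 29876 in caudal 1 wpi libraries and 7975 to 19620 in rostral ones, against 730 to 4195 and 684 to 3899 in the controls. Summed neuron markers were 362 to 1164 in caudal and 456 to 1393 in rostral libraries at 1 wpi, against 1182 to 3643 and 1325 to 3306 in controls. Summed oligodendrocyte markers were 13759 to 26412 caudal and 16850.3 to 39037 rostral, against 40265 to 137618 and 42400.3 to 150929 in controls. Neutrophil markers summed to 57.8 to 164 and 44.7 to 158 FPKM, against 23.9 to 54.4 and 18.7 to 51.4, epidermis markers to 34.5 to 43.4 and 35.3 to 43.6 FPKM, against 10.4 to 29.1 and 12.7 to 26.7, and cartilage and bone markers to 6.73 to 14.4 and 5.11 to 26.9 FPKM, against 2.06 to 3.49 and 1.61 to 2.52. None of the neuron, oligodendrocyte or radial glia markers was at 0. The libraries are bulk tissue, so more cells of a type and more RNA per cell cannot be told apart in any value below. The cell type marker lists held none of the 129 genes except npsn, in the neutrophil list, and their part in the values of the module was not tested.

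In both regions the module stepped down week by week. As deposited, its medians were lower caudal to the lesion than rostral to it at 2 and 4 wpi. After rescaling each library to its fragments on genes, the median difference of caudal and rostral levels was 0.02 and -0.016 at these weeks. At 6 wpi both regions were bound by the choice. The median change of the 129 genes was 1.40, 0.81, 0.22 and -0.02 at 1, 2, 4 and 6 wpi in the caudal segments and 1.24, 1.01, 0.51 and 0.29 in the rostral segments. The 391 genes still raised at 6 wpi had medians of 1.98, 1.85, 1.45 and 1.48 caudal and 1.89, 2.06, 1.93 and 1.74 rostral. At 2 wpi 35 members were still at 1 or more in the caudal segments and 66 in the rostral segments, against 7.23% and 9.66% of all genes at 1 FPKM or more. At 4 wpi the number was 1 caudal and 10 rostral, against 4.86% and 8.1%, and only cpt1ab was at 1 or more on both sides. Both regions were within 0.5 of control in 4 members at 2 wpi and in 52 at 4 wpi.

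The medians of single libraries overlapped between 6 and 4 wpi in both regions and did not overlap between 4 and 2 wpi. In caudal libraries the median of the module, relative to the control mean, was 1.08, 1.11, 1.57, 1.82 and 1.54 at 1 wpi, 0.67, 0.80, 0.79, 1.02 and 0.75 at 2 wpi, 0.15, 0.13, 0.26, 0.27 and 0.25 at 4 wpi, and -0.06, -0.16, -0.20 and 0.28 at 6 wpi. In rostral libraries it was 1.22, 1.05, 1.31, 1.66 and 1.52 at 1 wpi, 1.02, 0.87, 1.09, 0.87 and 1.04 at 2 wpi, 0.43, 0.36, 0.62, 0.50 and 0.49 at 4 wpi, and -0.12, 0.14, 0.16, 0.50 and 0.65 at 6 wpi. Rostral replicates 4 and 5 stood above rostral replicates 1 to 3 at 1 and at 6 wpi. At 6 wpi they averaged 0.58 over replicates 4 and 5 and 0.06 over replicates 1 to 3, and at 1 wpi the averages were 1.59 and 1.196, with 1.68 and 1.25 in the caudal segments. At 6 wpi caudal replicate 5 stood at 0.28, above the other 3 caudal libraries, so the return to the uninjured level was closer in replicates 1 to 3.

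**Figure D1:**
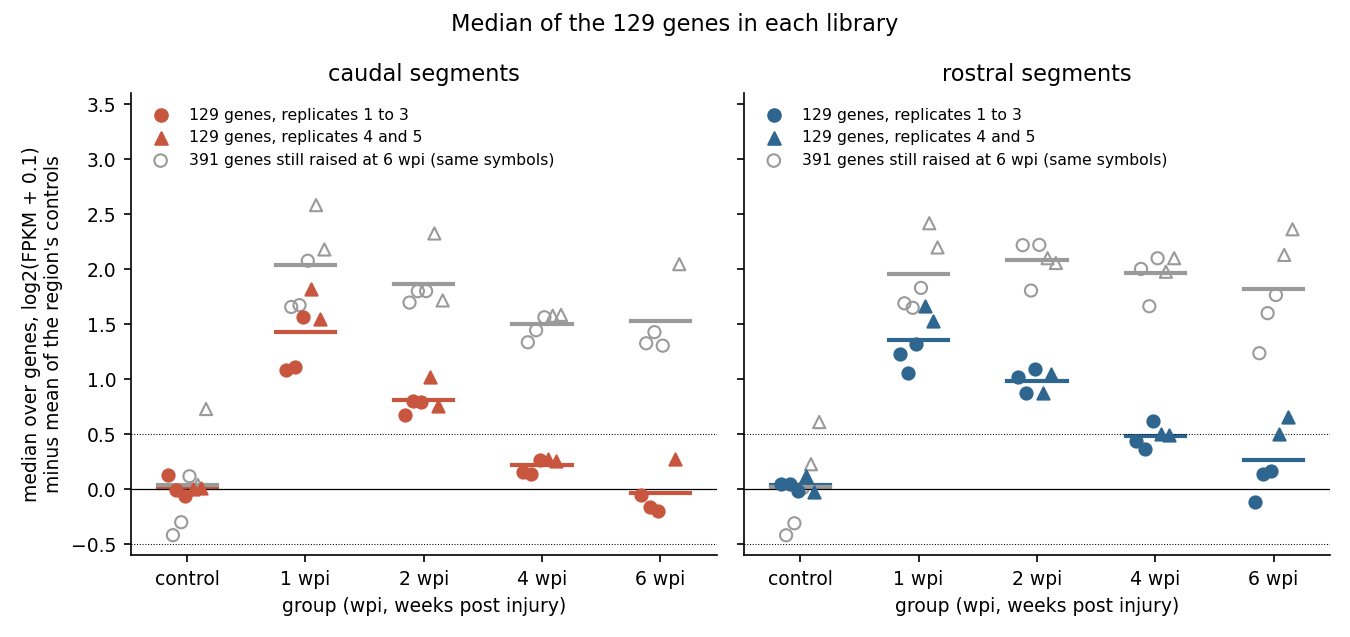
Median change of the module in each library, as log2(FPKM + 0.1) minus the mean of the controls of the same region, for the caudal (left) and rostral (right) segments in controls and at 1, 2, 4 and 6 wpi. Filled symbols are the 129 genes and open grey symbols the 391 genes still raised at 6 wpi; circles are replicates 1 to 3, triangles replicates 4 and 5, bars the mean of the library medians and dotted lines 0.5 above and below control. The bars of the 129 genes step down at each week, single caudal libraries lying between 0.13 and 0.27 at 4 wpi and rostral libraries between 0.36 and 0.62.

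The comparison of 4 wpi with 2 wpi used no control library, and it asks whether the return was under way between these weeks. Its libraries entered the rule only through the mean of at least 1 FPKM over all 49 libraries. Low genes that were high at 2 wpi passed that floor more easily, so for them the comparison is not independent of the choice. Nearly all members were lower at 4 wpi. The log2 difference was negative in 126 of 129 members in the caudal segments (median -0.64) and in 123 in the rostral segments (median -0.52), where 51.6% and 47.2% of all genes tested were negative. Of all genes at 1 FPKM or more, 53.8% were negative in each region, with a median of -0.03. The genes still raised at 6 wpi also leaned to negative, with 316 of 391 caudal (median -0.37) and 251 rostral (median -0.11). Few single genes passed the test. With limma's moderated test and Benjamini-Hochberg adjustment over all genes, 2 members fell in the caudal segments, TYMS and FOXD3, against 0.0392% of 28026 genes tested, and 0 of 129 changed in the rostral segments, against 0.00713% of 28052. At an unadjusted p under 0.05, 82 members were lower caudal and 69 rostral and none was higher in either, where 4.85% and 5.44% of all genes were lower. With voom on the recovered fragment counts the adjusted calls were 0 in both regions and the unadjusted ones 81 and 67. In the fit blocked on replicate number both caudal calls were lost, and leaving out any of the 10 caudal libraries left 0 calls, except without 2 wpi replicate 1, which left 1.

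Separation of the libraries was common among members. Every caudal library at 4 wpi was below every caudal library at 2 wpi in 41 of 129 genes (31.8%), against 1.97% of all genes at 1 FPKM or more, and the rostral count was 32 (24.8%) against 2.53%. The separation held on both sides in 21 genes: ACP6, DKC1, ESCO2, FBLIM1, GMPPB, LHFPL2, ODC1, ORC4, PDE6G, PTP4A1, TRIP13, TYMS, bik, dnm3a, gap43, ing5b, jpt1b, mdp1, si:dkeyp-20g2.1, slc25a24 and tuba5. The share of all genes separated on both sides was not computed, so these are listed by name and nothing is read from their number. In the rostral segments the lowest adjusted p was 0.0626, for si:dkeyp-20g2.1, followed by 0.0757 for jpt1b, a microtubule-associated protein gene. Over the 49 libraries si:dkeyp-20g2.1 averaged 1.01 FPKM, just above the floor of the rule. Its highest group mean was that of rostral 2 wpi, 2.01 FPKM, which helped it pass. Its rostral step is therefore not independent of the choice, and nothing is read from it. The neutrophil marker list summed to 42.5 to 71.9 FPKM in caudal libraries at 4 wpi, against 59.4 to 105 at 2 wpi, and the macrophage and microglia list to 5570 to 12637, against 11317 to 29297. Rostral sums were 59.8 to 98.2 against 90.03 to 107 and 5656 to 10985 against 9397 to 13341, and their part in the step was not tested.

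**Figure D2:**
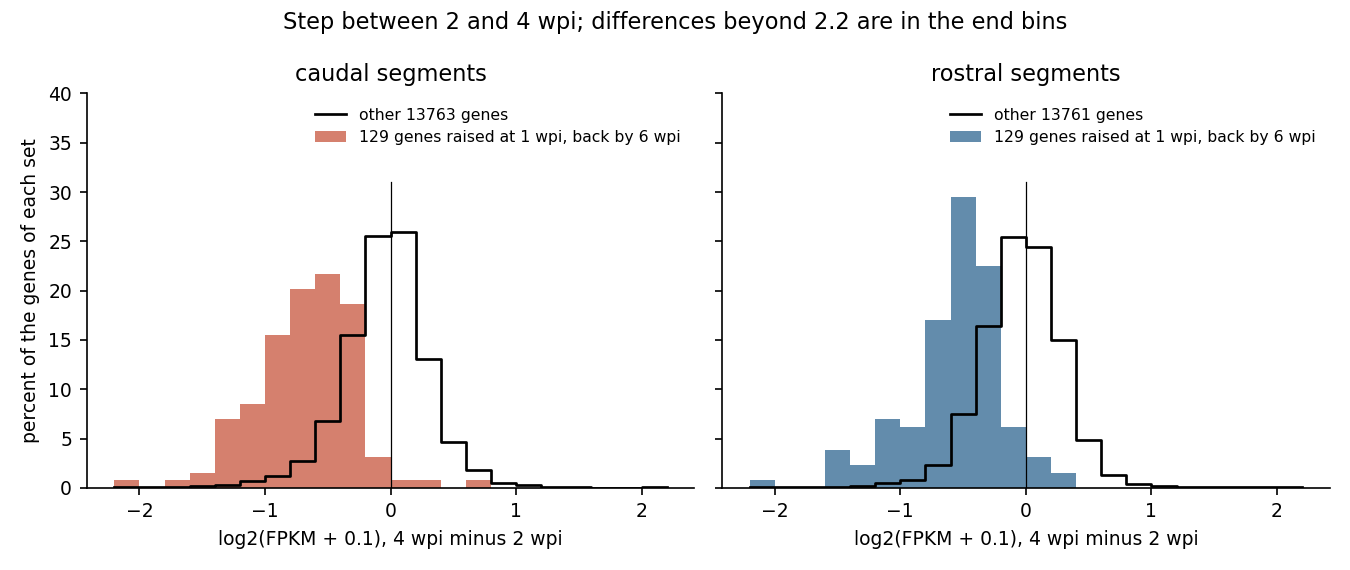
Log2 difference in FPKM of 4 wpi minus 2 wpi, caudal (left) and rostral (right): bars give the percent of the 129 genes in each bin and the line that of the other genes at 1 FPKM or more (13763 caudal, 13761 rostral); the end bins hold values beyond 2.2. The bars lie almost wholly below 0, with medians of -0.64 and -0.52.

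Levels against the controls are given as a description. The rule chose the members by their change from these same control libraries, so nothing is read from the numbers past limma's threshold. Single members are set against control below without a p, and nothing is read from libraries lying wholly above the controls. At 4 wpi every library was above every control in 13 of 129 members rostral and 4 caudal. Among the 13892 genes at 1 FPKM or more, this held for 1020 rostral and 557 caudal. At 2 wpi it held for 68 members rostral and 51 caudal, against 1455 and 970 of these genes. Past the threshold were 50 members, all higher, at 2 wpi in the caudal segments, where 6.36% of all genes were called in either direction and 4.47% were higher, and 90 in the rostral segments, where 15.1% were called and 9% were higher. The caudal count at 2 wpi rested on single libraries: it was 26, 31, 24 and 33 without caudal 2 wpi replicates 2, 3, 4 and 5, and 24 and 32 without caudal control replicates 3 and 4. At 4 wpi 1 member, glud1a, was past it in the caudal segments (1.38% of all genes called, 1.15% higher) and 9 in the rostral segments (6.42% called, 5% higher): cpt1ab, a STMN4 gene, NUDT9, CNN2, glud1a, STOML3, ESCO2, VMP1 and DESI2. In the fit blocked on replicate number the rostral count was 21 (6.44% of all genes higher), among them ccr2, tmsb, HGF and LGMN, without ESCO2 and DESI2. Unblocked, it was 5 without rostral 4 wpi replicate 4 and 5 without rostral control replicate 3. The caudal count was 0 without caudal 4 wpi replicates 2, 3, 4 or 5 or caudal control replicates 1, 2 or 4, and 3 without caudal control replicate 5.

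Caudal levels were below rostral levels in most members as deposited, by little. The median log2 difference, caudal minus rostral, was -0.11 at 2 wpi, with 84 of 129 members negative, and -0.22 at 4 wpi, with 102 negative. Among the genes still raised at 6 wpi, 327 of 391 were negative at 4 wpi, with a median of -0.35. After rescaling to fragments on genes, 63 members were negative at 2 wpi and 68 at 4 wpi, with medians of 0.02 and -0.016. Only tnfrsf11b passed the test at 2 wpi, against 0.122% of 27834 genes, and 0 of 129 at 4 wpi, against 0.128% of 28195, with 27 members at an unadjusted p under 0.05, against 6.94% of all genes, and 0 called and 25 unadjusted with voom. Blocked on replicate number, 7 members were called at 2 wpi and 4 at 4 wpi, against 1.74% and 0.883% of all genes, and the 4 were TYMS, tmsb, NSL1 and the unnamed ENSDARG00000058631, all lower in the caudal segments. The step between 2 and 4 wpi was not shown to differ between regions in any member (interaction term in limma, 0 of 129 and 0 of 28145 genes, 5 members at an unadjusted p under 0.05, against 1.83% of all genes, 0 called with voom).

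Genes of DNA replication, repair and nucleotide supply were the largest group of the module with 15 members. They were MCM2, MCM4, MCM5 and MCM6 of the replicative helicase, ORC4 and ORC6 of the origin recognition complex, the licensing factor CDT1, the nucleotide enzymes TYMS, RRM1, DCK and DCTD, the repair and chromatin factors UBE2T, UHRF1 and rhno1, and pclaf, which binds the replication clamp. Their median change was 1.43, 0.84, -0.13 and -0.31 in the caudal segments and 1.24, 0.92, 0.50 and 0.29 in the rostral segments at 1, 2, 4 and 6 wpi. In the caudal segments 11 of the 15 stood below the control mean at 4 wpi. So did 7336 of the 13892 genes at 1 FPKM or more, and nothing is read from the number. Between 4 and 2 wpi all 15 were negative in both regions, with medians of -0.91 caudal and -0.50 rostral, and 14 caudal and 9 rostral were lower at an unadjusted p under 0.05, against 4.85% and 5.44% of all genes. In 10 genes caudal and 2 genes rostral all libraries at 4 wpi were below all at 2 wpi, against 1.97% and 2.53% of all genes at 1 FPKM or more. In the whole module 31.8% of members caudal and 24.8% rostral were separated in this way. At limma's unadjusted p under 0.05, 63.6% and 53.5% of all members were lower. The 15 genes are part of the module and were not tested against it.

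TYMS (chr7:71535045-71541329, plus strand) encodes thymidylate synthase, which makes the thymidine nucleotide for DNA. It stood at 3.65, 2.64, 3.31, 4.199 and 3.74 FPKM in the caudal libraries at 4 wpi, against 8.70, 6.64, 8.43, 8.25 and 7.16 FPKM at 2 wpi. The highest library at 4 wpi was below the lowest at 2 wpi, and TYMS fell by 1.15 on the log2 scale (SE 0.15, limma adjusted p 0.0286, or 0.0667 with the replicate block). Rostral libraries had 7.15, 6.00, 7.20, 6.19 and 5.59 FPKM at 4 wpi and 16.0, 9.01, 12.7, 8.86 and 10.4 FPKM at 2 wpi, again without overlap (log2 difference -0.78 ± 0.17, with ± giving the SE of each log2 difference from here on, adjusted p 0.211). At 4 wpi caudal TYMS was below rostral TYMS in every library, by -0.86 ± 0.15 (adjusted p 0.0646, with the block 0.0293). The helicase subunit gene MCM5 had 4.42, 3.22, 3.31, 1.93 and 3.41 FPKM in caudal libraries at 4 wpi, against 7.41, 6.50, 6.69, 8.08 and 6.06 FPKM at 2 wpi. These did not overlap either, yet the difference of -1.11 ± 0.20 did not pass (adjusted p 0.121). In rostral libraries MCM5 had 5.78, 6.07, 4.92, 3.62 and 3.39 FPKM at 4 wpi and 7.52, 5.96, 8.90, 5.24 and 6.12 FPKM at 2 wpi, which overlapped.

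ORC6, a subunit that helps load the helicase, also stood lower at 4 wpi in the caudal segments, without passing the test. Its caudal level was 1.08, 1.09, 1.17, 1.04 and 1.90 FPKM at 4 wpi, against 2.51, 2.04, 3.00, 4.12 and 2.34 FPKM at 2 wpi (log2 difference -1.09 ± 0.23, adjusted p 0.204). At 2 wpi its log2 difference from control was 0.87 ± 0.27 caudal and 1.42 ± 0.27 rostral. UHRF1, which recruits the maintenance DNA methyltransferase, averaged 0.703 ± 0.135 FPKM in caudal libraries at 4 wpi and 1.46 ± 0.336 FPKM at 2 wpi (SD, n = 5 each), and RRM1, the large subunit of ribonucleotide reductase, averaged 4.80 ± 0.471 and 6.96 ± 0.681 FPKM. RRM1 was also among the 3 members of lowest week 1 log2 change, with 1.01 caudal and 1.06 rostral.

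**Figure D3:**
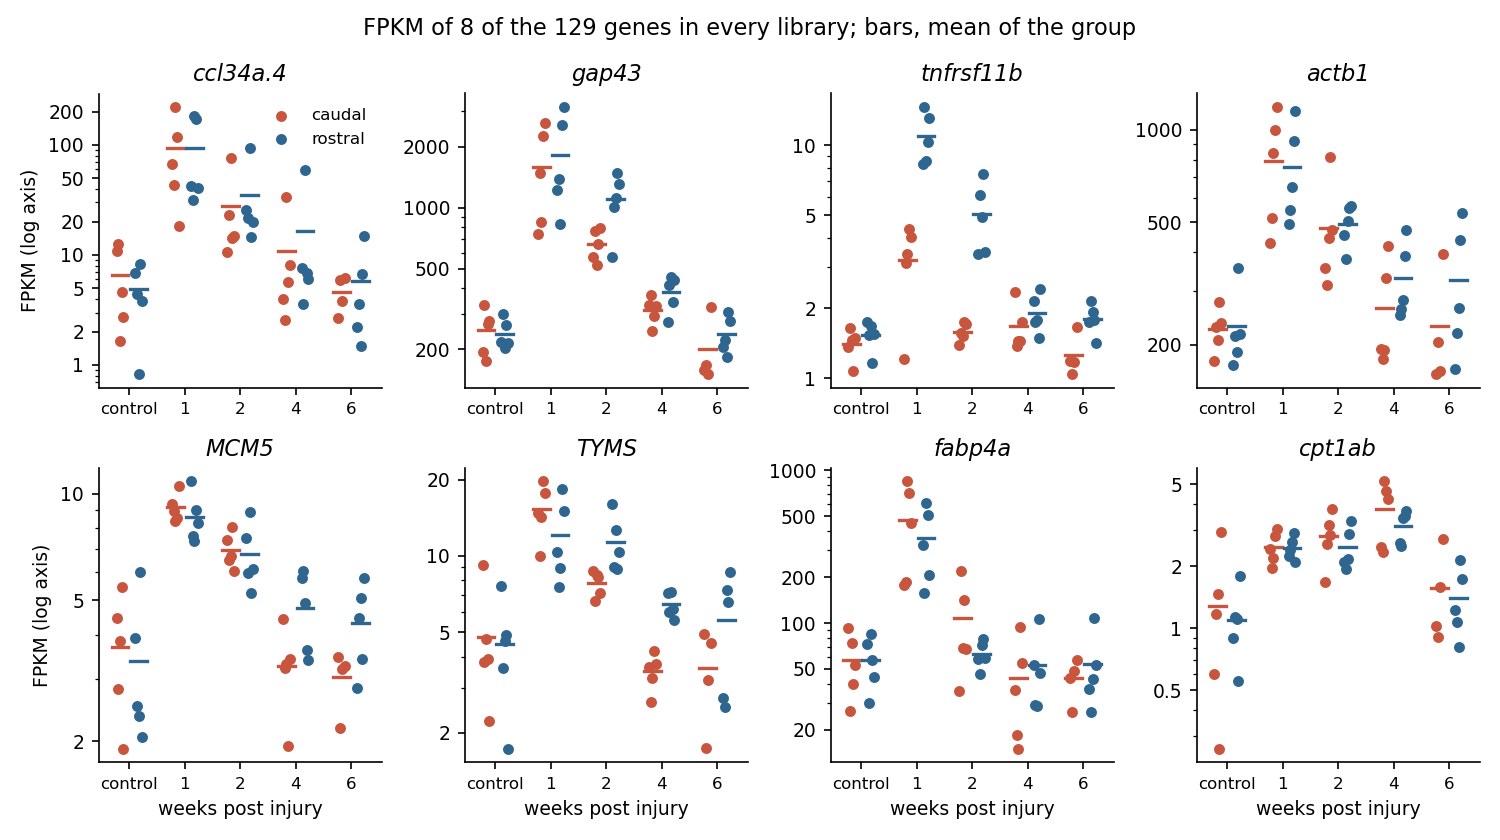
FPKM in each library (log axis) of 8 members in controls and at 1, 2, 4 and 6 wpi, caudal points left of rostral points within each week; bars are means. The panels show ccl34a.4, gap43, tnfrsf11b, actb1, MCM5, TYMS, fabp4a and cpt1ab. TYMS at 4 wpi lies between 2.64 and 4.199 FPKM in caudal libraries, below all caudal libraries at 2 wpi, and tnfrsf11b at 2 wpi is high on the rostral side only.

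Chromosome cohesion, centromere and mitosis genes gave 7 members: ESCO2, TRIP13, NSL1, itgb3bp, gtse1, CDCA7 and cdca7b. Their median change was 1.58, 0.78, -0.18 and -0.19 caudal and 1.44, 1.29, 0.53 and 0.31 rostral. The median difference of 4 wpi and 2 wpi was -1.16 in the caudal segments, with all 7 lower at an unadjusted p under 0.05 (4.85% of all genes), and -0.61 in the rostral segments, with 4 (5.44%). In the whole module 63.6% of members caudal and 53.5% rostral were lower at that threshold of limma's test. ESCO2, which acetylates cohesin so that sister chromatids stay joined, had 2.66, 2.23, 2.02, 1.91 and 2.40 FPKM in caudal libraries at 4 wpi, against 4.34, 3.97, 3.49, 5.95 and 3.94 FPKM at 2 wpi. Rostral ESCO2 had 3.75, 3.68, 3.23, 3.16 and 3.32 FPKM at 4 wpi and 5.45, 4.53, 5.94, 4.54 and 6.07 FPKM at 2 wpi. Neither pair of groups overlapped, and neither difference passed (-0.91 ± 0.17, adjusted p 0.144; -0.61 ± 0.13, adjusted p 0.211). At 4 wpi the log2 difference of ESCO2 from control was 0.17 ± 0.24 caudal and 0.93 ± 0.24 rostral. TRIP13, an ATPase that remodels checkpoint proteins, stood at 0.762, 0.403, 0.603, 0.577 and 0.586 FPKM in caudal libraries at 4 wpi and 1.43, 0.928, 1.43, 1.69 and 0.824 FPKM at 2 wpi. NSL1, a kinetochore protein, had the lowest caudal log2 change of the module at 4 wpi, -1.06 relative to control, against 0.53 in the rostral segments. It was called lower in the caudal than in the rostral segments at 4 wpi with the replicate block only (adjusted p 0.0249, without the block 0.334).

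Neurite growth and microtubule genes gave 5 members, gap43, both STMN4 genes, cntn1a and tuba5. Their median change was 1.65, 0.85, 0.28 and -0.19 caudal and 1.53, 1.21, 0.62 and 0.02 rostral. The growth cone protein gap43 (chr15:47161917-47176151, plus strand) was the most abundant member. It had 332, 370.1, 247, 292 and 326 FPKM in caudal libraries at 4 wpi, against 568, 769, 519, 662 and 789 FPKM at 2 wpi. Rostral libraries had 271, 413, 456, 341 and 442 FPKM at 4 wpi, against 571, 1009.9, 1116, 1479 and 1311 FPKM at 2 wpi. All libraries at 4 wpi lay below all at 2 wpi on both sides, with differences of -1.07 ± 0.21 caudal (adjusted p 0.149) and -1.47 ± 0.27 rostral (adjusted p 0.192). Uninjured libraries had 194, 332, 175, 266 and 276 FPKM caudal and 218, 298, 202, 265 and 214 FPKM rostral, and the log2 difference of 2 wpi from these was 1.43 ± 0.23 caudal and 2.14 ± 0.26 rostral.

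A pair of members shares the symbol STMN4, a stathmin that binds tubulin in neurons, and they behaved unequally. ENSDARG00000043932 had 41.7, 46.3, 70.7, 46.6 and 60.9 FPKM in rostral libraries at 4 wpi, against 26.1, 13.7, 24.6, 23.0 and 28.6 FPKM in controls. The groups did not overlap, with a log2 difference of 1.21 ± 0.22. ENSDARG00000030106 had 207, 244, 356, 365 and 503 FPKM at 4 wpi and 233, 197, 281, 274 and 389 FPKM in controls, which overlapped (0.25 ± 0.27). The sequences of the 2 genes were not compared. If they hold near-identical parts, reads may have been shared between them or lost in counting, so the split between the 2 genes is uncertain. The first of these was also lower in the caudal than in the rostral segments at 2 wpi with the replicate block (-0.95, adjusted p 0.0086, without the block 0.313).

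Actin and cell adhesion genes gave 12 members: actb1, tmsb, the Arp2/3 subunits actr3 and ARPC5, TWF1, CNN2, ARHGDIA and ABRACL, the focal adhesion proteins ZYX and FBLIM1, and the integrins ITGA6 and ITGB1. Their median change was 1.37, 0.81, 0.25 and -0.07 caudal and 1.26, 0.86, 0.48 and 0.31 rostral. The cytoplasmic actin gene actb1 had 356, 313, 445, 817 and 472 FPKM in caudal libraries at 2 wpi, against 177, 228, 208, 276 and 236 FPKM in controls, a log2 difference of 1.03 ± 0.26 without overlap. At 4 wpi actb1 had 194, 180.2, 193, 331 and 419.6 FPKM caudal and 249.8, 261, 279, 388 and 473 FPKM rostral, and overlapped the controls on both sides. The gene tmsb encodes a beta thymosin, which sequesters actin monomers. It had 8.99, 7.03, 3.66, 7.84 and 4.85 FPKM in caudal libraries at 4 wpi, against 22.1, 15.1, 15.5, 21.2 and 14.2 FPKM at 2 wpi, without overlap (-1.48 ± 0.25, adjusted p 0.111). Rostral tmsb at 4 wpi, 16.5, 10.9, 12.06, 12.8 and 9.43 FPKM, was above every control library (6.06, 2.15, 8.23, 9.20 and 5.67 FPKM). CNN2, a calponin, had a log2 difference from control of 0.82 ± 0.17 at 4 wpi in the rostral segments. ITGA6, the laminin receptor subunit, was among the 3 members of smallest log2 change at 2 wpi, with 0.29 caudal and 0.11 rostral after 1.72 and 1.49 at 1 wpi.

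Immune signals and blood cell products gave 5 members. The module's largest week 1 change was that of the chemokine gene ccl34a.4 (chr2:40199002-40199780, minus strand), 3.75 caudal and 4.15 rostral on the log2 scale. Its libraries spread widely. At 2 wpi it had 10.6, 23.3, 75.8, 14.4 and 15.0 FPKM caudal, against 11.0, 12.6, 1.64, 4.59 and 2.74 FPKM in controls, and 25.8, 21.9, 94.6, 14.4 and 20.03 FPKM rostral, against 6.92, 4.42, 0.822, 8.32 and 3.84 FPKM. Replicate 3 was highest in each injured group up to 4 wpi and lowest in both control groups. The log2 difference from control was 2.06 ± 0.62 caudal and 2.80 ± 0.61 rostral. The chemokine receptor gene ccr2 was among the 3 members of largest log2 change at 4 wpi, with 0.96 caudal and 1.29 rostral. Rostral libraries had 0.789, 1.62, 3.81, 2.67 and 3.54 FPKM of it at 4 wpi, against 0.537, 0.859, 1.21, 0.721 and 0.938 FPKM in controls, and only replicate 1 lay within the control range. At 2 wpi the log2 difference of ccr2 from control was 1.76 ± 0.42 caudal and 1.91 ± 0.27 rostral. The gene npsn, a protease of zebrafish neutrophils, had 1.54, 2.69, 2.80, 8.73 and 6.43 FPKM caudal and 3.67, 3.37, 13.0, 7.94 and 14.4 FPKM rostral at 2 wpi, overlapping the controls at 1.06, 0.906, 2.95, 1.32 and 3.38 and 3.03, 1.28, 2.93, 3.59 and 4.53 FPKM. The complement gene c7b, a part of the membrane attack complex, had a log2 difference from control of 0.10 ± 0.25 at 2 wpi in the caudal segments, and CD276, an immune checkpoint ligand, had a log2 change from control of 0.98 caudal and 1.27 rostral then.

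Secreted regulators and their receptors gave 5 members, among them HGF, LOX, acvrl1 and tnfrsf11b. The last of these (chr19:142044-148055, plus strand) encodes osteoprotegerin, a decoy receptor for a TNF family ligand, and was the member called between regions at 2 wpi. At 2 wpi it had 1.39, 1.56, 1.52, 1.74 and 1.72 FPKM in caudal libraries, against 3.43, 6.14, 4.92, 7.53 and 3.47 FPKM in rostral libraries. The groups did not overlap, and caudal tnfrsf11b was lower by a log2 difference of -1.56 ± 0.22 (adjusted p 0.021, with the block 0.0145). The call was lost without caudal 2 wpi replicates 1, 2, 3 or 5 or rostral 2 wpi replicate 3. Caudal controls had 1.36, 1.65, 1.45, 1.07 and 1.49 FPKM, so the caudal libraries at 2 wpi already overlapped the controls. Rostral libraries had 2.15, 1.74, 1.77, 1.49 and 2.41 FPKM at 4 wpi, all below the rostral libraries at 2 wpi (-1.32 ± 0.23, adjusted p 0.149). The caudal step minus the rostral step was 1.37 ± 0.29, with an adjusted p of 1.

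HGF, the ligand of the MET receptor, was another of the 3 members of largest log2 change at 4 wpi, with 0.74 caudal and 1.26 rostral. Caudal HGF at 2 wpi was 2.92, 2.43, 2.21, 1.55 and 1.87 FPKM, against 1.05, 0.827, 1.27, 0.591 and 0.470 FPKM in controls, with all injured libraries above all controls (1.33 ± 0.28). Rostral HGF at 4 wpi was 1.95, 1.93, 2.81, 1.16 and 0.904 FPKM, against 0.917, 0.360, 1.14, 0.807 and 0.275 FPKM in controls, a log2 difference of 1.26 ± 0.39. LOX, which cross-links collagen, and acvrl1, an endothelial receptor of the BMP family, had log2 changes from control of 0.97 and 0.99 caudal and of 1.25 and 0.70 rostral at 2 wpi.

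Metabolic enzymes and lipid carriers gave 9 members, and these differed in when they returned. The fatty acid carrier fabp4a (chr19:32166702-32169161, plus strand) had 323, 158, 608, 506 and 207 FPKM in rostral libraries at 1 wpi and 57.7, 46.2, 71.8, 78.5 and 58.7 FPKM at 2 wpi, where controls had 72.4, 30.1, 84.3, 57.2 and 44.0 FPKM. Its rostral level at 2 wpi overlapped the controls (0.19 ± 0.27), while the caudal libraries at 2 wpi spread between 35.9 and 220.1 FPKM (0.75 ± 0.47). The gene cpt1ab (chr25:23591990-23645806, plus strand) encodes a carnitine palmitoyltransferase, which admits fatty acids to mitochondria. Its rostral level at 4 wpi was 2.59, 2.51, 3.41, 3.52 and 3.70 FPKM, against 0.899, 1.13, 1.11, 0.556 and 1.79 FPKM in controls. All injured libraries were above all controls, with a log2 difference of 1.51 ± 0.27. The gene was named for its large change from these controls at 4 wpi, so nothing is read from the separation. Caudal cpt1ab had 2.47, 2.35, 5.15, 4.65 and 4.23 FPKM at 4 wpi and 0.602, 1.18, 1.47, 0.260 and 2.93 FPKM in controls, where control replicate 5 overlapped (1.76 ± 0.49). With cartl it was the only member whose difference between 4 and 2 wpi was positive on both sides (0.39 ± 0.27 caudal, adjusted p 0.757; 0.34 ± 0.19 rostral, adjusted p 0.61). The glutamate dehydrogenase gene glud1a (chr13:22679084-22699024, minus strand), chosen after its values were seen, had 8.60, 12.8, 9.21, 9.83 and 10.6 FPKM in caudal libraries at 4 wpi, against 4.52, 5.53, 6.82, 4.196 and 5.96 FPKM in controls. Its log2 difference from control was 0.92 ± 0.18 caudal and 0.63 ± 0.15 rostral. The other metabolic members, ODC1, UAP1, GMPPB, CPOX, FAH and SPTLC2, had log2 changes from control at 4 wpi between -0.65 and 0.52 caudal and between -0.03 and 0.73 rostral.

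Lysosome, endosome and membrane traffic genes gave 8 members, LGMN, GALNS, VMP1, RAB7A, RAB13, BIN1, MTMR2 and dnm3a, with a median change of 1.32, 0.73, 0.30 and 0.12 caudal and 1.18, 0.85, 0.55 and 0.39 rostral. LGMN, a lysosomal cysteine protease, averaged 62.0 ± 8.08 FPKM in rostral libraries at 2 wpi, against 34.3 ± 6.87 FPKM in controls (SD, n = 5 each), a log2 difference of 0.87 ± 0.17. VMP1, an autophagy protein of the endoplasmic reticulum, had a log2 difference from control of 0.57 ± 0.15 at 4 wpi in the rostral segments. Protein folding genes of the endoplasmic reticulum gave 4 members, the calreticulin calr3a, the disulfide isomerases PDIA3 and TXNDC5 and the cochaperone DNAJB11. PDIA3 had 115, 128, 113, 111 and 116 FPKM in caudal libraries at 2 wpi, against 78.8, 95.1, 65.1, 85.9 and 74.7 FPKM in controls, with every injured library above every control (0.56 ± 0.15). At 2 wpi in the rostral segments the log2 difference from control was 0.95 ± 0.27 for calr3a and 0.48 ± 0.20 for DNAJB11. Proteasome and degradation genes gave 4 members, the lid deubiquitinase PSMD14, the ubiquitin receptor ADRM1, the assembly chaperone PSMG1 and the segregase VCP, with a median change of 1.16, 0.60, 0.17 and -0.01 caudal and 1.06, 0.59, 0.05 and 0.12 rostral. PSMD14 had a log2 difference from control of 0.72 ± 0.14 at 2 wpi in the rostral segments.

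**Figure D4:**
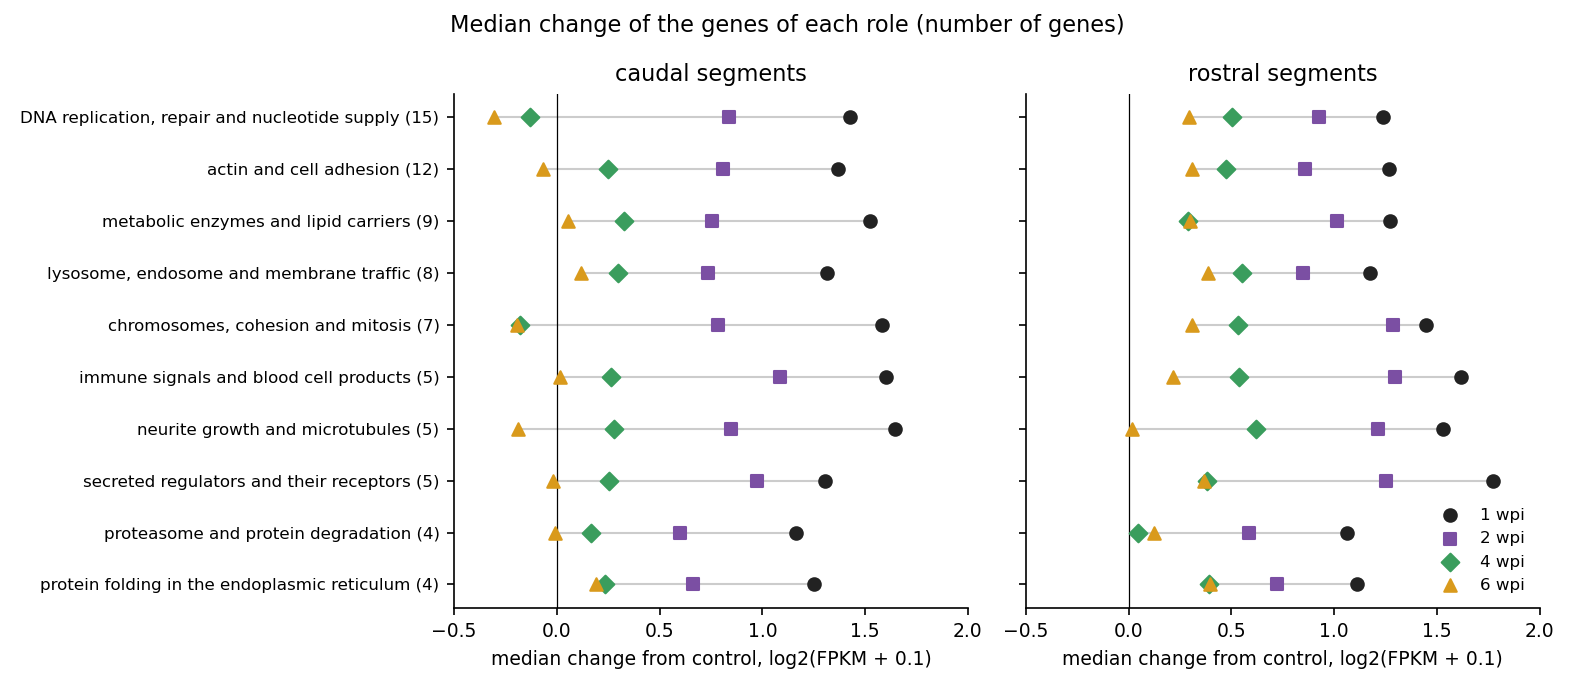
Median change from control of the members of each role group (log2) at 1, 2, 4 and 6 wpi, caudal left and rostral right. Groups of DNA replication (15 genes) and of chromosomes and mitosis (7 genes) run lowest at 4 wpi in the caudal segments, at -0.13 and -0.18, and stand at 0.50 and 0.53 in the rostral segments.

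The remaining 55 members fell in none of these groups. Their median log2 change was 1.44, 0.88, 0.30 and 0.03 caudal and 1.23, 1.02, 0.56 and 0.29 rostral at 1, 2, 4 and 6 wpi. The difference of 4 wpi and 2 wpi was negative in 54 caudal and 51 rostral, with 1 caudal gene, FOXD3, past the test. FOXD3 (chr6:32092032-32093830, minus strand), a transcription factor known for neural crest, was chosen after its values were seen. Its caudal libraries had 16.8, 17.5, 16.6, 15.2 and 16.4 FPKM at 4 wpi, against 27.7, 52.3, 37.2, 38.4 and 31.5 FPKM at 2 wpi. FOXD3 fell by 1.14 on the log2 scale (SE 0.17, limma adjusted p 0.0495, with the block 0.0781), and the groups did not overlap. In the rostral segments it had 10.2, 17.8, 11.3, 11.2 and 15.6 FPKM at 4 wpi and 17.4, 33.8, 25.2, 21.0 and 23.1 FPKM at 2 wpi, which overlapped (-0.86 ± 0.20, adjusted p 0.244). The largest changes of the module at 2 wpi were those of ccl34a.4, teni.1 and bik. For teni.1 this follows from the choice and nothing is read from it, since its mean of 3.1 FPKM came mostly from the 2 wpi libraries. These averaged 21.6 FPKM rostral and 3.51 FPKM caudal, and every other group averaged 1.64 FPKM or less. The apoptosis regulator bik was at 2 wpi above its own week 1 level on both sides. It had 1.12, 1.38, 1.29, 1.35 and 1.43 FPKM in rostral libraries at 4 wpi, against 3.91, 2.12, 3.03, 5.50 and 4.91 FPKM at 2 wpi, without overlap (-1.43 ± 0.24, adjusted p 0.131). Caudal bik had 1.29, 0.612, 1.23, 1.06 and 0.986 FPKM at 4 wpi and 2.52, 2.29, 2.21, 18.99 and 2.65 FPKM at 2 wpi, where replicate 4 stood apart.

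Some members entered on few libraries. At 2 wpi teni.1 had 0.0811, 0, 0, 3.17 and 14.3 FPKM in caudal libraries and 0, 0, 0.0943, 10.1 and 97.9 FPKM in rostral libraries, so that replicates 4 and 5 carried its level, and at 4 wpi it was at or below 0.758 FPKM in every library. The tetraspanin gene tspan4b and the CART-like peptide gene cartl were, with ITGA6, the members of smallest change at 2 wpi. Their libraries spread widely within groups, tspan4b between 0.073 and 1.64 FPKM and cartl between 0.542 and 18.7 FPKM in caudal controls alone. The ferritin-like gene fthl27, of lowest week 1 change, had 107, 63.6, 229, 1649 and 373 FPKM in rostral libraries at 1 wpi, against 87.4, 55.6, 158, 121 and 297 FPKM in controls, so that only replicate 4 stood above the control range by a wide margin. DESI2, a small deubiquitinase-like protein, was by contrast higher in every rostral library at 2 wpi, with 15.2, 11.8, 14.0, 10.6 and 11.7 FPKM, against 7.43, 8.74, 7.16, 5.58 and 6.73 FPKM in controls, a log2 difference of 0.82 ± 0.16, and of 0.59 ± 0.16 at 4 wpi. STOML3, a stomatin-like membrane protein of sensory neurons in mouse, had a log2 difference from control of 0.20 ± 0.48 caudal and 1.24 ± 0.29 rostral at 4 wpi. CACNG5, an auxiliary subunit of AMPA receptors, had a log2 change from control of 0.88 caudal and 0.42 rostral at 2 wpi after 2.07 and 1.74 at 1 wpi. DKC1, the pseudouridine synthase of ribosomal RNA, had 16.9, 14.7, 10.8, 12.5 and 13.4 FPKM in caudal libraries at 4 wpi and 23.2, 22.8, 18.6, 23.0 and 17.8 FPKM at 2 wpi, without overlap (-0.63 ± 0.15, adjusted p 0.285). The uncharacterised si:ch211-180f4.1 had the second largest week 1 change, 2.47 caudal and 3.36 rostral on the log2 scale, and was at 1.48 and 1.85 at 2 wpi.

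The gene lists show which parts of the week 1 response returned, as a description that follows from the choice of members. Of the DNA replication list 40 genes averaged 1 FPKM or more and 11 of these were raised at 1 wpi in both regions; 9 of the 11 belong to the module and 0 were still at 1 or more at 6 wpi. Over its 40 genes the median change was 0.94, 0.49, -0.14 and -0.18 at 1, 2, 4 and 6 wpi in the caudal segments and 0.79, 0.71, 0.37 and 0.19 in the rostral ones. Of 41 genes of the mitosis list 4 were raised at 1 wpi and only ESCO2 entered the module, with list medians of 0.76, 0.13, -0.64 and -0.84 caudal and 0.65, 0.38, -0.08 and -0.38 rostral. The lists were not tested against each other. Of the 40 genes of the macrophage and microglia list 32 were raised at 1 wpi, 22 were still raised at 6 wpi in both regions and 0 belong to the module. At 4 wpi 14 of 43 tested macrophage genes were higher than control in the caudal segments, against 1.15% of all genes, and 33 of 43 in the rostral segments, against 5%. Of the axon growth list 6 of 26 genes were raised, 4 belong to the module and 1 was still raised at 6 wpi. Over its 26 genes the median change was 0.19, -0.08, -0.25 and -0.34 caudal and -0.05, -0.23, -0.27 and -0.29 rostral. The list as a whole was thus not raised. Of the unfolded protein response list 7 of 34 were raised, 3 belong to the module and 0 were still raised. Of the cytokine list 11 of 22 were raised, 2 belong to the module and 5 were still raised, and of the complement and antigen presentation list 11 of 17 were raised, with 1 in the module and 9 still raised. Lists of actin genes and of proteasome genes were drawn up after the members were seen: 10 of 13 raised actin genes and all 4 raised proteasome genes belong to the module. In all, 24 members were in the lists drawn up earlier, 37 in any list and 92 in none.

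**Figure D5:**
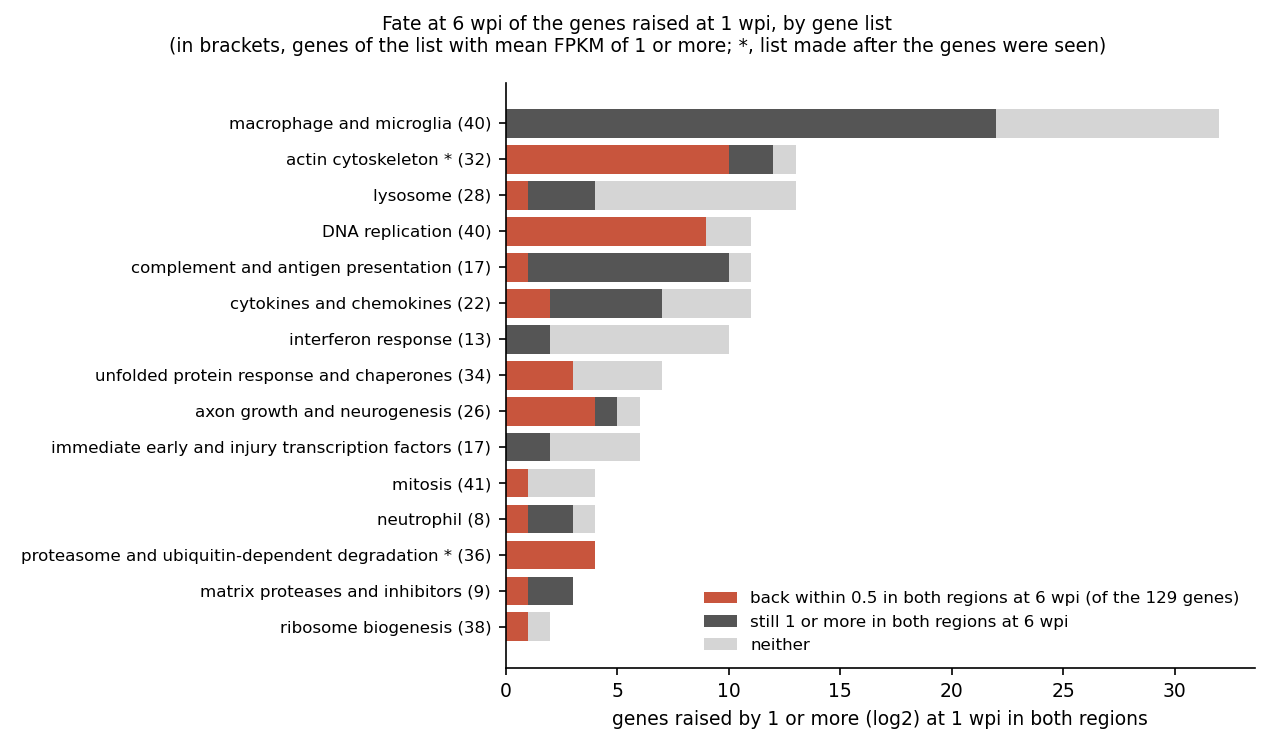
Genes raised by 1 or more (log2) at 1 wpi in both regions, by gene list, split by their state at 6 wpi: within 0.5 of control in both regions (the 129 genes), still 1 or more in both, or neither. Numbers in brackets are the genes of each list at 1 FPKM or more, and an asterisk marks lists drawn up after the members were seen. The macrophage and microglia bar (32 genes) holds none of the 129, and the DNA replication bar (11 genes) holds 9.

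Chromosomal position was shared by few members. Within 100 kb of each other lay 6 neighbouring pairs, among them MCM2 with dnase1l4.2, cntn1a with pclaf, CDT1 with GALNS and itgb3bp with FOXD3.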

How the data were processed

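Spinal cord RNA was sequenced (NEBNext Ultra libraries, Illumina) and the authors deposited FPKM, 1 column per library for 49 libraries in 10 groups. The submitters' processing notes name HISAT2 2.0.5, featureCounts 1.5.0-p3 and danRer11. Whether counting used strand is not given in the sources used here, so overlapping genes may share reads. The total behind the deposited FPKM differed from the fragments on genes of each library (CV of their ratio 22.95%). Divided by a step estimated for each library, FPKM times gene length was a whole number of fragments for 100% of values. The tolerance was 0.01, and wider for large numbers.

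Here log2(FPKM + 0.1) was fitted with limma 3.58.1 (R 4.3.3; lmFit, eBayes with trend) for the groups compared, over genes with a mean of at least 0.1 FPKM in them, with Benjamini-Hochberg adjustment over all genes tested and a threshold of 0.05. The authors' own tests used DESeq2, which needs counts. Fold changes are on the log2(FPKM + 0.1) scale, which understates changes of low genes. A comparison of libraries that do not overlap uses FPKM as deposited. The fits were tested on simulated data. Symbols came from a gene table for 29178 of 40085 rows.

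Members and gene lists were chosen with earlier results of these data known. Named were the members of largest week 1, 2 and 4 change, of smallest week 1 and 2 change, up to 4 per gene list, and those called between regions. Other members named, glud1a and FOXD3 among them, were chosen after their values were seen. Role groups were drawn up after the members were known. Alternatives were another pseudocount (1, 0.01), other filters, quantile normalization, rescaling to fragments on genes, all groups in 1 fit, no trend, voom on the recovered fragments, the replicate number as a block, subsets of replicates and leaving out each library. As a check of pairing, deviations from the group means were correlated over genes between libraries of the same number. Every such correlation was over 0.1 for 4 against 2 wpi (means 0.339 caudal, 0.354 rostral), for rostral 4 wpi against control (0.267) and between regions at 2 wpi (0.519) and 4 wpi (0.601), so the numbers were taken to pair these libraries, and not for the other comparisons with control. Rows without an Ensembl identifier (8184) were left out of the selection. The values of 1 member are not reported here.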

Additional observations from a re-analysis of the deposited data

Results flagged for a closer look

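In 120 groups of 4 or 5 libraries, of the 11 genes checked and of the module's median, 7 held a library far from the others by Dixon's 95% critical value, where chance gives 6. They were ccl34a.4 in rostral 4 wpi replicate 3 (59.1 FPKM), teni.1 in rostral 6 wpi replicate 5 (8.22 FPKM), gap43 in caudal 6 wpi replicate 5 (325 FPKM), ccr2 in caudal 4 wpi replicate 1 (0.386 FPKM), CACNG5 in caudal 1 wpi replicate 3 (10.7 FPKM) and in rostral 1 wpi replicate 3 (8.92 FPKM), and tnfrsf11b in caudal 1 wpi replicate 1 (1.21 FPKM). Beside caudal 4 wpi replicate 1, the other 4 caudal libraries of ccr2 at 4 wpi lay between 2.09 and 2.86 FPKM. Caudal controls lay between 0.517 and 1.93 FPKM. Replicate 1 was kept in the main fits. The controls took part in the choice of members, so nothing is read from leaving it out. The tnfrsf11b level of caudal 1 wpi replicate 1 was in the range of the caudal controls (1.07 to 1.65 FPKM), while the other 4 libraries of that group had 3.12 to 4.35 FPKM.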

How the results depend on the processing

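The direction of the step between 4 and 2 wpi held over 23 settings: the members' median ran from -0.67 to -0.52 in the caudal segments (122 to 126 of 129 genes negative) and from -0.56 to -0.43 in the rostral segments (115 to 125 negative). Counts of calls depended on the setting. For caudal 4 against 2 wpi the 2 calls became 1 with a pseudocount of 1, with no filter, with a mean of at least 1 FPKM and with quantile normalization, 5 with all groups in 1 fit, and 0 with rescaling, with no trend, with the replicate block, with voom and with replicates 1 to 3 or 4 and 5 only. For rostral 4 against 2 wpi the 0 calls became 1 with quantile normalization, 3 with all groups in 1 fit and 1 with no trend. The counts against control at 2 wpi became 8 and 0 caudal (50) and 31 and 11 rostral (90) with replicates 1 to 3 and with replicates 4 and 5 only, and 33 caudal with no trend. At 4 wpi the rostral count (9) became 22 with rescaling, 15 with all groups in 1 fit, 21 with the block, 1 with replicates 1 to 3 and 0 with replicates 4 and 5, and the caudal count (1) became 6 with rescaling and with all groups in 1 fit and 0 with no trend or either subset of replicates. Between regions the count at 2 wpi (1) became 0 with rescaling, with no trend and with either subset and 7 with the block, and that at 4 wpi (0) became 1 with a mean of at least 1 FPKM and 4 with the block. The block left 0 rostral calls at 4 against 2 wpi and 0 for the interaction, and gave 48 caudal and 99 rostral calls at 2 wpi and 1 caudal call at 4 wpi against control, where the numbers did not pair the libraries; own-number correlations were the highest in 1, 2 and 2 of 5 libraries there. The cause of these differences was not tested. Leaving out 1 library gave 0 to 1 calls for caudal and for rostral 4 against 2 wpi (1 rostral without 4 wpi replicate 3), 24 to 53 caudal and 61 to 83 rostral at 2 wpi, 0 to 3 caudal and 5 to 10 rostral at 4 wpi, and 0 to 1 at 2 wpi and 0 to 0 at 4 wpi between regions. The adjusted p of TYMS ran up to 0.576 and that of FOXD3 up to 0.885, both after rescaling, which shifted the median of all genes against control by 0.19 to 0.28. Rostral differences at 4 against 2 wpi turned sign with quantile normalization for LGMN (0.000197), c7b (0.059, with rescaling 0.032), HGF (-0.0375) and PDIA3 (0.00892), and the caudal one with rescaling for ITGA6 (0.014). The rule found 117 genes with a pseudocount of 1 (76 shared with the 129), 131 with 0.01 (120), 112 after quantile normalization (94), 99 with replicates 1 to 3 (51), and 107 to 150 without a replicate number, and 28 members were found without each number in turn. Library medians at 6 wpi were 0.28 for caudal replicate 5 alone and 0.58 for rostral replicates 4 and 5, a split added after seeing the data. Against control, 12 rows without an Ensembl identifier met the same limits. Fragment numbers limit low genes: the lowest library held 4359571 fragments on genes.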

Other observations

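Beyond the mean FPKM, the rule used injured libraries of weeks 1 and 6 only. Of the 129 members, 5 stood higher at 2 wpi than at 1 wpi on both sides. So did 106 of the 391 genes still raised at 6 wpi. The share of all genes was not computed, so nothing is read from the number. The 5 members were PDE6G, bik, FAH, cpt1ab and the unnamed ENSDARG00000108332, chosen after their values were seen. ENSDARG00000108332 averaged 1.19 FPKM over the 49 libraries, near the floor of the rule. Its 2 wpi means of 1.85 FPKM caudal and 1.80 FPKM rostral helped it pass, so its place here is not independent of the choice. For cpt1ab the rostral change was 1.16 both at 1 and at 2 wpi. The widest gap between these weeks was in bik, whose change from control was 1.99 at 2 wpi and 1.14 at 1 wpi in the caudal segments and 2.08 and 1.33 in the rostral segments. PDE6G, the inhibitory subunit of the photoreceptor phosphodiesterase, had 3.56, 4.85, 2.50, 5.97 and 1.83 FPKM in caudal libraries at 2 wpi, against 0.774, 0.580, 0.511, 1.18 and 1.01 FPKM in controls. Rostral PDE6G had 3.96, 2.32, 2.42, 3.84 and 3.56 FPKM at 2 wpi, against 0.696, 0.688, 0.869, 0.900 and 1.19 FPKM in controls. All libraries at 2 wpi were above all controls on both sides, with log2 differences of 2.01 ± 0.33 caudal and 1.77 ± 0.23 rostral (SE, n = 5 each). These are descriptions with no test, since the members were chosen by their values at 1 wpi and in the controls. FAH, the last enzyme of tyrosine breakdown, was listed at 0.0465 FPKM in caudal 4 wpi replicate 3, while the other 4 libraries of that group had 3.85 to 9.49 FPKM.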
